A study of Mus musculus with 14 samples.

Results

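Promoter contacts were described for 5 genes of ventral jaw patterning, *Edn1*, *Ednra*, *Hand2*, *Hand1* and *Gsc*, in mouse cranial neural crest cells (CNCCs). The genes were chosen by name, and their members are the HindIII restriction fragments that served as capture baits and hold an annotated transcription start site (TSS) of a listed gene (GRCm38/mm10, GENCODE vM21). Each gene had 1 such bait, so that 5 of 22171 baits entered. Promoter-capture Hi-C (PCHi-C) joins DNA ends held near each other in fixed nuclei and pulls out the joined molecules that carry a bait. The deposited CHiCAGO score weighs a bait and fragment pair against the background expected at its distance in the same library, no score below 5 was listed, and an unlisted pair was given 0.

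The 14 libraries held 2 replicates of each of 7 conditions. Wild-type embryos carried *Wnt1::Cre* and *ROSA-RFP*, a transgene pair that labels the neural crest lineage, and their sorted CNCCs came from the frontonasal process (FNP), the maxillary process (Mx), the mandibular process (Md) and PA2, the pharyngeal arch next to the jaw arch, all at E10.5, and from the pinna, the external ear, at E12.5 and E14.5. The knockout cells came from E10.5 PA2 of *Hoxa2EGFP/EGFP* embryos, which lack functional Hoxa2 and were sorted by GFP in place of RFP, so that genotype, reporter and the *Wnt1::Cre* transgene cannot be told apart in that comparison. E14.5 tissue was dissociated with papain and the other tissue with trypsin, so that stage and enzyme cannot be told apart either. Cells of embryos of both sexes were pooled. The study's methods call the PCHi-C replicates biologically independent, and the labels do not tie them to litters or animals.

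Endothelin 1, encoded by *Edn1*, is a secreted peptide made by the arch epithelium and mesoderm, and it acts on the endothelin A receptor, encoded by *Ednra*, on the crest cells that fill the arch. This signal sets the ventral identity that gives rise to the lower jaw. *Hand2* and *Hand1*, which encode basic helix-loop-helix transcription factors of the ventral arch, and *Gsc*, which encodes the homeodomain factor Goosecoid, are known to act downstream of it.

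The *Edn1* bait is chr13:42295820-42303819 (plus strand gene), the *Ednra* bait is chr8:77723817-77727100 (minus strand), the *Hand2* bait is chr8:57318613-57347153 (plus strand), the *Hand1* bait is chr11:57829688-57833210 (minus strand) and the *Gsc* bait is chr12:104471034-104477639 (minus strand). The *Hand2* bait is 28541 bp long and also holds start sites of *Hand2os1*, *Gm34030* and *5033428I22Rik*, and the *Gsc* bait holds that of *Gm10000*. Contacts of genes in 1 fragment cannot be separated.

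Promoter windows of RefSeq (GRCm38.p6, from 250 bases before to 50 after a start site) were found for *Edn1*, *Ednra*, *Hand2* and *Gsc*, 1 for each gene. The windows of *Hand2* and *Gsc*, whose contacts are described in most detail, and the window of *Sp8*, a zinc finger gene, that spans the end of the fragment contacted by *Gsc* in FNP and Mx, follow in the direction of each gene. Capitals mark CATCTG (an E-box form bound by Hand factors), TAATTA (a homeodomain core), TAATCC (a Goosecoid-type site), each on either strand, and the HindIII site AAGCTT. The homeodomain core and the Goosecoid-type site open with the same letters and can overlap.
Hand2 promoter, chr8:57320733-57321032, plus strand: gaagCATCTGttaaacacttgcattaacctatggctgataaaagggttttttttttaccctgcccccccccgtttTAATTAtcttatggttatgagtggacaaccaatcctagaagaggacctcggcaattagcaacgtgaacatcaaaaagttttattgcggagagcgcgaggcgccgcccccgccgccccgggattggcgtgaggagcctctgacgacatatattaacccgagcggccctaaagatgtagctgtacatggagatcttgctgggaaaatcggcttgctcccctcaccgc
Gsc promoter, chr12:104473187-104473486, minus strand: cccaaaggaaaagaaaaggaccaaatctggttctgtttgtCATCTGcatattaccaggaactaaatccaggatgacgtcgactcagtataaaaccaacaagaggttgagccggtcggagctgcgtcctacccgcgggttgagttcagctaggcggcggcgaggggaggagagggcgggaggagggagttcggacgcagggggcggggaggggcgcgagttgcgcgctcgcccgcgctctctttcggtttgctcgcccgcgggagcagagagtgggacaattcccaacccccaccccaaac
Sp8 promoter, chr12:118846079-118846378, plus strand: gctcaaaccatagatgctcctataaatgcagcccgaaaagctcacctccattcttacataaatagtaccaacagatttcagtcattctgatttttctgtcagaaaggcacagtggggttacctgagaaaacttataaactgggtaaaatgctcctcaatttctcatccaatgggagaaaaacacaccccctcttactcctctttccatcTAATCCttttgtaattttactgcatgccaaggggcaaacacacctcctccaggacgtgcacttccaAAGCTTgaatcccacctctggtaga

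The *Edn1* and *Ednra* windows held none of these motifs. CATCTG was found 1 time in the *Hand2* window and 1 time in the *Gsc* window, and 17.2% of 32851 RefSeq promoter windows held it. TAATTA was found 1 time in the *Hand2* window (5.29% of windows), and TAATCC 1 time in the *Sp8* window shown (7.06%). The table holds 3 windows of *Sp8*, of which the other two start beyond the contacted fragment, 1 with TAATTA and 1 with no motif. The HindIII site in the *Sp8* window is the end of the contacted fragment. Of the contacted fragments, the opening 300 bases are shown for the *Hand2* fragment of the highest mean score, for the *Hand2* fragment of the largest difference between populations and for an *Ednra* fragment that was higher in pinna, on the plus strand.
Hand2 fragment at -699 kb, chr8:56620312-56620611: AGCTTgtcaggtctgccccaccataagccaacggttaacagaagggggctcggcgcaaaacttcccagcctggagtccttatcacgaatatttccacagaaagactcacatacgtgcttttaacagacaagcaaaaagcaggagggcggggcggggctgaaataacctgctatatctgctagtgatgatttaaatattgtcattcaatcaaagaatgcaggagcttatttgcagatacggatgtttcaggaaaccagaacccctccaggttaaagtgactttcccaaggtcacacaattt
Hand2 fragment at -671 kb, chr8:56648087-56648386: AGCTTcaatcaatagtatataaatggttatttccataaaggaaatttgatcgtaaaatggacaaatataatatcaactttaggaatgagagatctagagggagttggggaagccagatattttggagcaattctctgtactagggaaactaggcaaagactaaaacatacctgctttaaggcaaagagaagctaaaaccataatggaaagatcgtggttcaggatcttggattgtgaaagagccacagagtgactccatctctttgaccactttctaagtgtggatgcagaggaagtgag
Ednra fragment at 281 kb, chr8:78004996-78005295: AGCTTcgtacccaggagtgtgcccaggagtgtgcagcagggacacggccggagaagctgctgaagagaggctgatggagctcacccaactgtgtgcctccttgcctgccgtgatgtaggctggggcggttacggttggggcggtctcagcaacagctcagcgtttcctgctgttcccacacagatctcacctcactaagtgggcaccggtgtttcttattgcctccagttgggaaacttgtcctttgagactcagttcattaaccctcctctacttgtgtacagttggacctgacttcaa

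Each fragment opens with the cut HindIII end in capitals. The motifs searched were not found in these 3 stretches. Of 24620 listed chromosome 8 fragments, 22.3% held the E-box form, 10.7% the homeodomain core and 11.5% the Goosecoid-type site in an opening stretch of the same length.

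Same-chromosome pairs per library numbered between 113670 and 186248, with the fewest in the knockout libraries (113670 and 120854). Pairs between chromosomes made up 46.5% of the list in Md replicate 1 and 62.7% in E12.5 pinna replicate 2, the libraries whose names say that they were merged, and between 2.64% and 5.61% elsewhere. Contact numbers below therefore count same-chromosome fragments only. The lists hold no read counts, so that depth per library is unknown and no counting interval can be given.

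The *Hand2* and *Gsc* baits were among the most connected of the series. Over the 14 libraries, *Hand2* was listed with a mean of 51.7 fragments on its chromosome, more than 99.2% of baits, and *Gsc* with 41.9, more than 98.5%. The means of *Hand1* (8.64), *Ednra* (8.29) and *Edn1* (7.86) exceeded those of 72.2%, 70.9% and 69.4% of baits, where the median bait had 4.43. The number of fragments listed in all 14 libraries was 14 for *Hand2*, 7 for *Gsc*, 1 for *Hand1* and 0 for *Ednra* and *Edn1*.

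**Figure D1:**
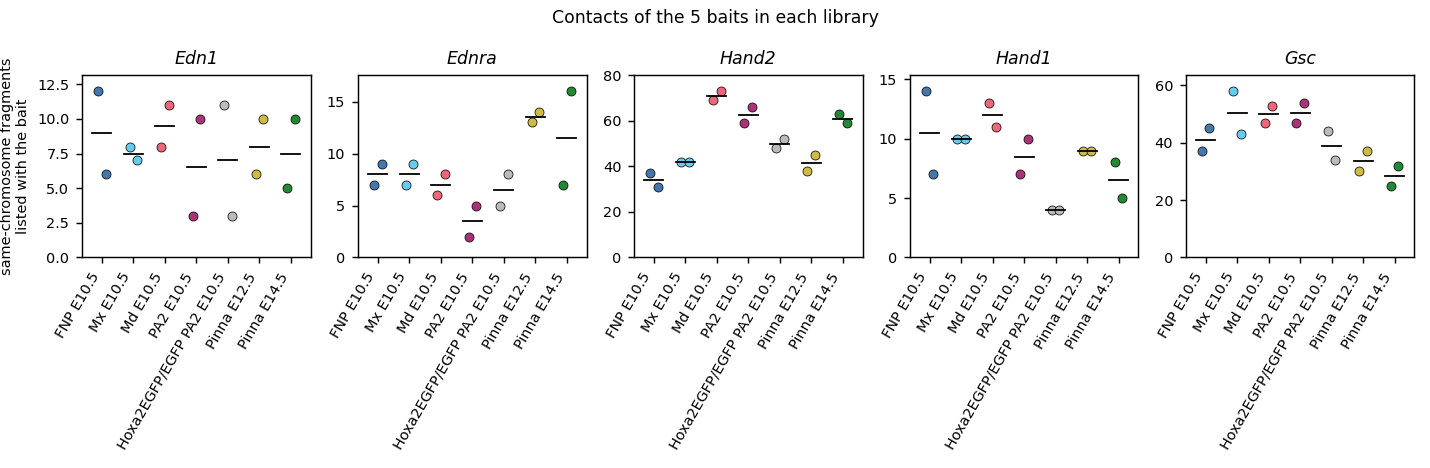
Number of same-chromosome fragments listed with each bait (y axis) in every library, by condition (x axis), with points for the 2 replicates and a line at their mean. *Hand2* lay between 59 and 73 in Md, PA2 and E14.5 pinna and between 31 and 52 in the other conditions, and *Ednra* was highest in pinna.

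*Edn1*, the ligand, had few and variable contacts. Its bait was listed with 12 and 6 fragments in FNP, 8 and 7 in Mx, 8 and 11 in Md, 3 and 10 in PA2, 11 and 3 in knockout PA2, 6 and 10 in E12.5 pinna and 5 and 10 in E14.5 pinna. Replicates of 1 condition differed by up to 8 fragments, and every condition overlapped its neighbour in the order of means, from Md (9.50 ± 2.12, SD, n = 2) to PA2 (6.50 ± 4.95). Contacts lay mostly upstream, where 16 fragments listed in 2 or more libraries formed a stretch of 110 kb between 555 and 661 kb from the TSS (chr13:41636990-41746784). The most often listed were the fragments at -588 kb (9 libraries, mean score 4.43, up to 8.85) and -657 kb (9 libraries, mean score 4.32, up to 8.98), followed by those at -656, -654 and -661 kb with 6 libraries each. Promoter fragments of *Adtrp*, which encodes a membrane hydrolase, at -453 kb and of *Hivep1*, a zinc finger gene, at -248 kb were listed in 5 and 4 libraries.

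*Ednra*, the receptor, was listed with more fragments in each pinna library than in either wild-type PA2 library. Its bait was listed with 2 and 5 fragments in wild-type PA2, against 13 and 14 in E12.5 pinna and 7 and 16 in E14.5 pinna. The groups did not overlap (mean difference 9, SD 3.87 over 4 pinna and 2.12 over 2 PA2 libraries), and this was so for 9.69% of all baits in the same direction. The exact permutation test gave p = 0.0667 (two-sided), the smallest that 15 groupings allow. In limma on log2(contacts + 1) over 21826 baits, the log2 difference was 1.62 (SE 0.43, adjusted p = 0.215), and 0.165% of baits passed. The other conditions lay between, with 7 and 9 fragments in each of FNP and Mx, 6 and 8 in Md and 5 and 8 in knockout PA2, and in the order of means each condition overlapped the next.

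Distances are given along the chromosome, and since *Ednra* is on the minus strand, positive ones are upstream of it. The pinna contacts of *Ednra* lay in a stretch of 117 kb between 226 and 338 kb upstream (chr8:77950533-78067921), where 20 fragments were listed in 2 or more libraries. The libraries listed 12 and 12 of them in E12.5 pinna and 7 and 13 in E14.5 pinna, against 2 and 3 in wild-type PA2, 4 and 5 in knockout PA2, 1 and 5 in Md, 3 and 4 in Mx and 4 and 7 in FNP. The fragment at 273 kb (chr8:77997088-78004995) scored 7.58 and 5.24 in E12.5 pinna, 9.20 and 9.22 in E14.5 pinna, was unlisted in both PA2 and both knockout libraries, and scored 5.62, 6.11 and 6.92 in 1 library each of FNP, Mx and Md. Its neighbour at 281 kb, the *Ednra* sequence above, scored 6.28, 5.63, 7.39 and 7.51 in the pinna libraries and 6.49 in FNP replicate 2, and was unlisted in the other 9. Both were higher in pinna than in PA2 in limma on asinh of the score over 179227 pairs, by 2.73 (SE 0.37, adjusted p = 0.0135) and 2.59 (SE 0.38, adjusted p = 0.0141). Among the 6 libraries compared they were listed in pinna alone, so that they entered the test through the group in which they were high.

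The shorter-range contact of *Ednra* at 103 kb was the most often listed, in 10 libraries. It scored 7.64 and 8.31 in FNP, 8.55 and 9.43 in Mx, 7.46 and 6.27 in Md, and was unlisted or 5.51 in PA2, unlisted in both knockout libraries, 6.05 and 6.76 in E12.5 pinna, and unlisted or 7.42 in E14.5 pinna. All 4 FNP and Mx scores exceeded the 4 Md and PA2 scores, but the difference of -0.92 on the asinh scale (SE 0.53) had an adjusted p of 0.533 in limma.

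*Hand2*, the best connected of the 5, was listed with more fragments in Md and PA2 than in FNP and Mx. The libraries listed 69 and 73 fragments in Md and 59 and 66 in PA2, against 37 and 31 in FNP and 42 and 42 in Mx. The groups did not overlap, with means of 66.75 ± 5.91 and 38.0 ± 5.23 (SD, n = 4 each), where 1.27% of all baits showed no overlap in this direction. The exact permutation test gave p = 0.0286 (two-sided), the smallest that 70 groupings allow. This value is not adjusted for the other baits and comparisons tested. The difference lay between 26.4 and 31.3 when each library was left out. Replicates were exchanged singly in the exact test, since the 4 populations kept whole allow only 3 splits. In limma over 21988 baits the log2 difference was 0.80 (SE 0.16), the fifth lowest p of all baits, but its adjusted p was 0.385 and 0 baits passed. *Hand1* (10.25 ± 2.50 against 10.25 ± 2.87), *Edn1* (8.00 ± 3.56 against 8.25 ± 2.63), *Ednra* (5.25 ± 2.50 against 8.00 ± 1.15) and *Gsc* (50.25 ± 3.77 against 45.75 ± 8.85) overlapped between these groups.

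In the order of condition means of *Hand2*, Md (71.0 ± 2.83) was followed by PA2 (62.5 ± 4.95), E14.5 pinna (61.0 ± 2.83), knockout PA2 (50 ± 2.83), Mx (42.0, both replicates alike), E12.5 pinna (41.5 ± 4.95) and FNP (34.0 ± 4.24, SD, n = 2 each). PA2 overlapped E14.5 pinna, and Mx overlapped E12.5 pinna, while the replicates of the other neighbours did not overlap. Knockout PA2 had 48 and 52 fragments, below both wild-type PA2 libraries, and the knockout libraries also listed the fewest pairs in all. That difference was -0.32 on the log2 scale (SE 0.21, limma adjusted p = 0.621, with 0.759% of baits called), and the median over all baits was -0.16. E14.5 pinna exceeded E12.5 pinna, with 63 and 59 against 38 and 45 fragments, by 0.55 on the log2 scale (SE 0.21, limma adjusted p = 0.543, with 0.0768% of baits called).

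**Figure D2:**
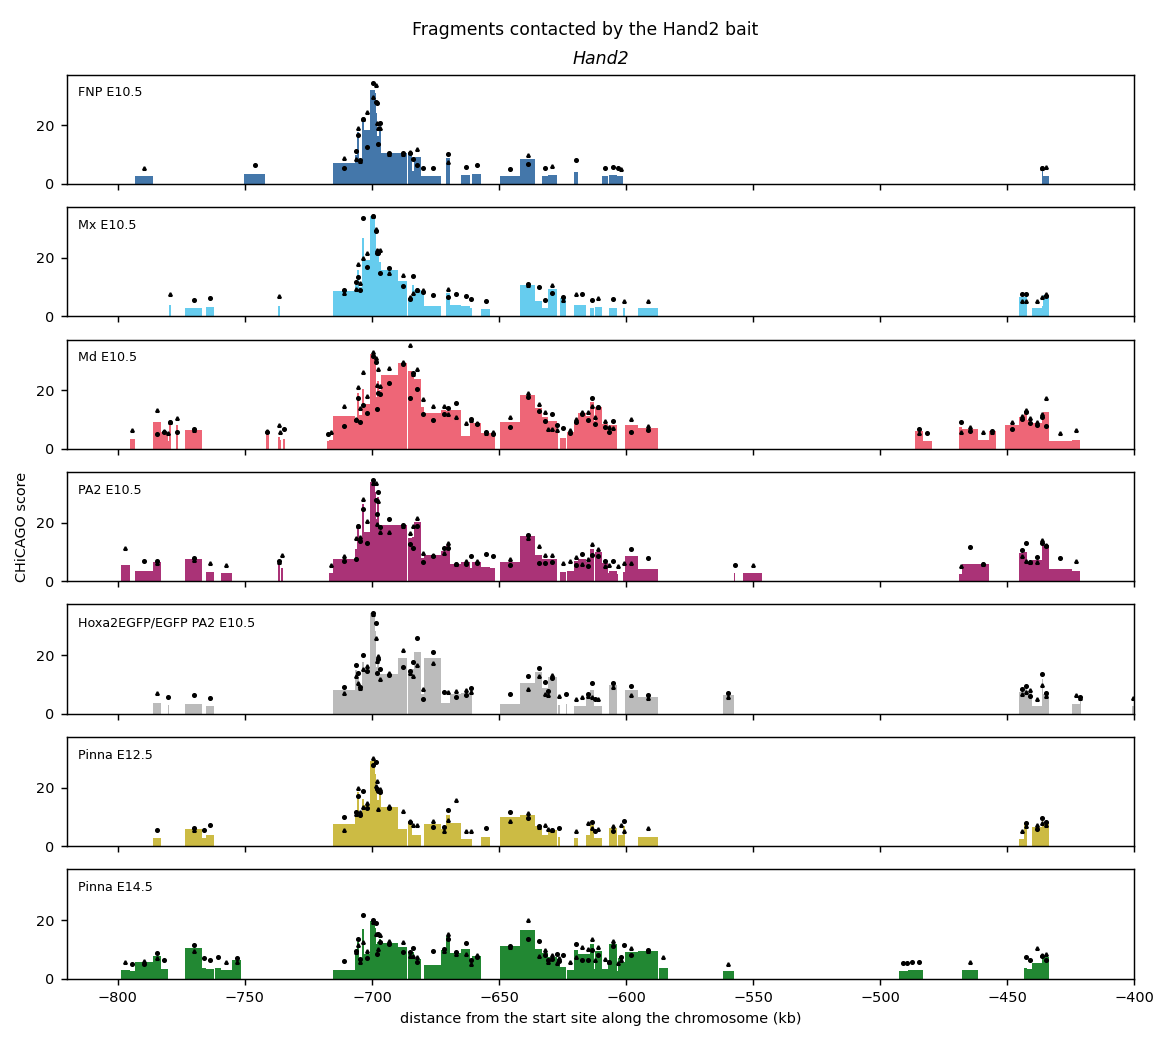
CHiCAGO scores (y axis) of fragments contacted by the *Hand2* bait against distance from the TSS in kb (x axis), 1 panel per condition. Bars are the mean of 2 replicates over the width of each fragment, and circles and triangles are replicates 1 and 2. The peak near -699 kb was present in every condition, while the flank near -686 kb was highest in Md and the contacts between -483 and -421 kb were most frequent in Md and PA2.

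The contacts of *Hand2* fell in 2 upstream stretches. The larger held 67 fragments listed in 2 or more libraries, between 557 and 795 kb from the TSS (chr8:56522240-56763498), and the nearer held 15, between 421 and 483 kb (chr8:56834668-56899758). Of the 67, FNP libraries listed 28 and 20, Mx 33 and 27, Md 50 and 55, PA2 44 and 47, knockout PA2 38 and 38, E12.5 pinna 30 and 37 and E14.5 pinna 51 and 50. Of the 15, FNP listed 1 and 2, Mx 3 and 5, Md 11 and 14, PA2 9 and 9, knockout PA2 6 and 8, E12.5 pinna 4 and 5 and E14.5 pinna 5 and 4. In both stretches each Md and PA2 library listed more fragments than each FNP and Mx library. The stretches were drawn from these same lists, so that this divides the bait difference above by position and adds no further support to it. No share over stretches of other baits was taken.

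The core of the larger stretch was shared by all conditions. The fragment at -699 kb (chr8:56620312-56622133), whose opening bases are shown above, scored 34.5 and 29.8 in FNP, 34.5 and 34.25 in Mx, 31.85 and 33.3 in Md, 34.5 and 33.7 in PA2, 34.5 and 34.25 in knockout PA2, then 27.9 and 30.35 in E12.5 pinna and 20.15 and 19.5 in E14.5 pinna. Md and PA2 differed from FNP and Mx there by 0.00 on the asinh scale (SE 0.07, limma adjusted p = 1.00). The highest *Hand2* score was the same, 34.54, in replicate 1 of FNP, Mx, PA2 and knockout PA2. It was 34.25 in replicate 2 of both Mx and knockout PA2. Whether such repeated values mark an upper limit of the score was not tested, so that like scores do not show contacts of equal strength. Both E14.5 scores lay below the other 12, and the pinna difference to PA2 was -0.35 (SE 0.16, adjusted p = 0.534). The next 4 fragments by mean score, between -703 and -697 kb, had means from 19.2 to 27.4 and were also listed in all 14 libraries.

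Scores around this core were less alike. On the side that faces the gene, the fragment at -686 kb (chr8:56631271-56634943) scored 28.9 and 29.7 in Md, 19.4 and 18.95 in PA2 and 15.9 and 22.0 in knockout PA2, against 10.46 and 10.2 in FNP, 10.3 and 13.95 in Mx, unlisted and 11.99 in E12.5 pinna and 9.23 and 12.4 in E14.5 pinna. Each Md and PA2 score exceeded each FNP and Mx score, with a difference of 0.75 (SE 0.15, limma adjusted p = 0.533). The fragment at -671 kb (chr8:56648087-56650153, opening bases above) was unlisted in all 4 FNP and Mx libraries and scored 12.02 and 14.51 in Md and 11.2 and 9.49 in PA2. In knockout PA2 it scored 7.45 or was unlisted, and in pinna it scored 6.46 and 5.28 at the earlier and 10.2 and 9.47 at the later stage. Its difference of 3.15 (SE 0.57) was the largest rise among the *Hand2* pairs, and its adjusted p was 0.533 in limma. Unlisted in FNP and Mx, it entered the test through the group in which it was high. On the far side, the fragments at -783, -780, -776 and -741 kb had differences of 2.69, 1.23, 1.37 and 1.25, and all 4 were called only when population means were fitted. Those at -780, -776 and -741 kb did not reach the filter of 2 libraries among PA2 and pinna. None of these was therefore listed in both PA2 replicates.

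A few contacts ran the other way. The fragment 26.3 kb downstream of the *Hand2* TSS (chr8:57347248-57351061), just past the bait, scored 6.57 and 5.46 in FNP and 6.27 and 6.59 in Mx, was unlisted in all Md, PA2, knockout and E14.5 libraries, and scored 6.51 in E12.5 pinna replicate 1. The next fragment, at 30.1 kb, scored between 6.19 and 7.45 in FNP and Mx, 6.49 and 5.44 in PA2, and was unlisted in Md. Among other promoters, that of *Hmgb2*, a chromatin protein gene at 185 kb, was listed in all 14 libraries with a mean score of 7.67, and the fragment shared by *Cep44* and *Fbxo8* at -767 kb was listed in 10.

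The scores of single pairs were compared on the asinh scale, which is close to logarithmic at these values and defined at 0. Pairs listed in 2 or more of the 8 libraries entered, and 198 member pairs were thus tested for Md and PA2 against FNP and Mx. Limma called 0 of them and 0 of all 215985 pairs (0% called). At an unadjusted p below 0.05, 30 of 77 *Hand2* pairs were higher and 1 was lower, where 1.74% of all pairs were higher and 2.07% lower. Scores did not overlap for 22 higher *Hand2* pairs and 1 lower, where 0.757% and 0.995% of all pairs did so. The *Hand2* pairs share 1 bait and many are adjacent fragments, so that they are not independent of each other. Some of them entered the test through Md and PA2 alone. The median difference of the *Hand2* pairs was 1.27, and that of all pairs was -0.01. The corresponding medians were 0.12 for *Gsc* (71 pairs), 0.07 for *Hand1* (21), -0.05 for *Edn1* (16) and -0.92 for *Ednra* (13).

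That comparison depended on how the error was taken. With the means of the 4 populations fitted, so that the error is the spread between the replicates of a population, limma called 6.49% of all pairs and 35 of the 198 member pairs, 25 higher and 10 lower in Md and PA2. *Hand2* had 19 higher and 2 lower, *Gsc* 5 and 4, *Ednra* 1 and 2, and *Edn1* and *Hand1* 1 lower each, where 3.14% of all pairs were higher and 3.35% lower. Of the 35, 14 did not overlap between the groups, and the score ranges of the others overlapped. The filter was again 2 of the 8 libraries, so that a pair listed only in both replicates of a single population could enter. Such a pair entered through the population in which it was high, and its replicates show little spread. The calls of this fit are therefore given as a description. This fit was chosen after the data were seen, and it speaks of these 4 populations alone.

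Neighbouring promoters listed some of the same distal fragments. Of 8 other baits within 1 Mb of the *Hand2* bait, 5 were listed in some library with fragments that *Hand2* contacted in the larger stretch. The baits that were not listed with such fragments lie within that stretch or directly beside it. The bait of *Sap30*, which encodes a histone deacetylase complex subunit, shared 44 of them, and that of *Scrg1* shared 26, with a mean of 3.50 per library in Md and PA2 against 0.50 in FNP and Mx. The number of all contacts overlapped between the groups for 7 of the 8, and it was higher in Md and PA2 for the bait of *Cep44* and *Fbxo8* (10.0 against 5.75).

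*Hand1*, the second Hand gene, had 14 and 7 fragments in FNP, 10 and 10 in Mx, 13 and 11 in Md, 7 and 10 in PA2, 9 and 9 in E12.5 pinna, 8 and 5 in E14.5 pinna and 4 and 4 in knockout PA2. The knockout libraries were the lowest of the 14, but the difference to wild-type PA2 was not past the threshold (log2 difference -0.91, SE 0.40, limma adjusted p = 0.377). The contact at 3.70 kb, with a neighbouring bait that holds no annotated TSS, was listed in all 14 libraries with scores between 6.31 and 12.6. The fragment at 83.0 kb was listed in 13, with 14.1 and 11.0 in Md, 12.7 and 10.4 in knockout PA2 and 5.20 or unlisted in E14.5 pinna, and those at -282, 98.4 and -284 kb in 11, 11 and 10. Limma called 0 of its same-chromosome pairs in the 4 comparisons of pairs.

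**Figure D3:**
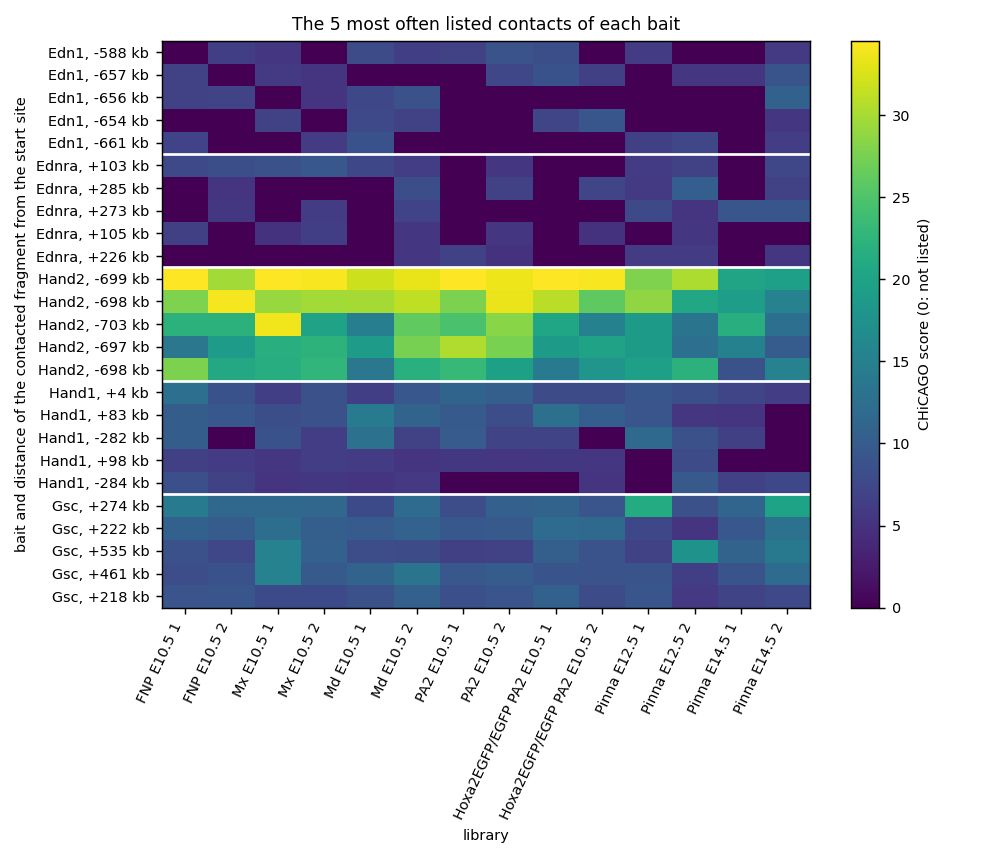
CHiCAGO score (colour, 0 where unlisted) of the 5 fragments listed in the most libraries for each bait (rows, with the distance from the TSS in kb, ties ordered by mean score) in the 14 libraries (columns). The *Hand2* rows are the strongest, up to 34.5, and no *Edn1* or *Ednra* row is filled in every library.

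*Gsc*, the homeobox gene, was listed with fewer fragments in each pinna library than in either wild-type PA2 library. Its bait was listed with 47 and 54 fragments in PA2, against 30 and 37 in E12.5 pinna and 25 and 32 in E14.5 pinna. The groups did not overlap (31.0 ± 4.97, SD, n = 4, against 50.5 ± 4.95, n = 2), as for 5.39% of all baits in this direction. The exact permutation test again gave its smallest value, p = 0.0667 (two-sided), and limma a log2 difference of -0.70 (SE 0.23, adjusted p = 0.321). The remaining libraries had 37 and 45 fragments in FNP, 58 and 43 in Mx, 47 and 53 in Md and 44 and 34 in knockout PA2. In the order of means only Md and FNP, at 50 ± 4.24 and 41.0 ± 5.66, were neighbours whose replicates did not overlap.

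**Figure D4:**
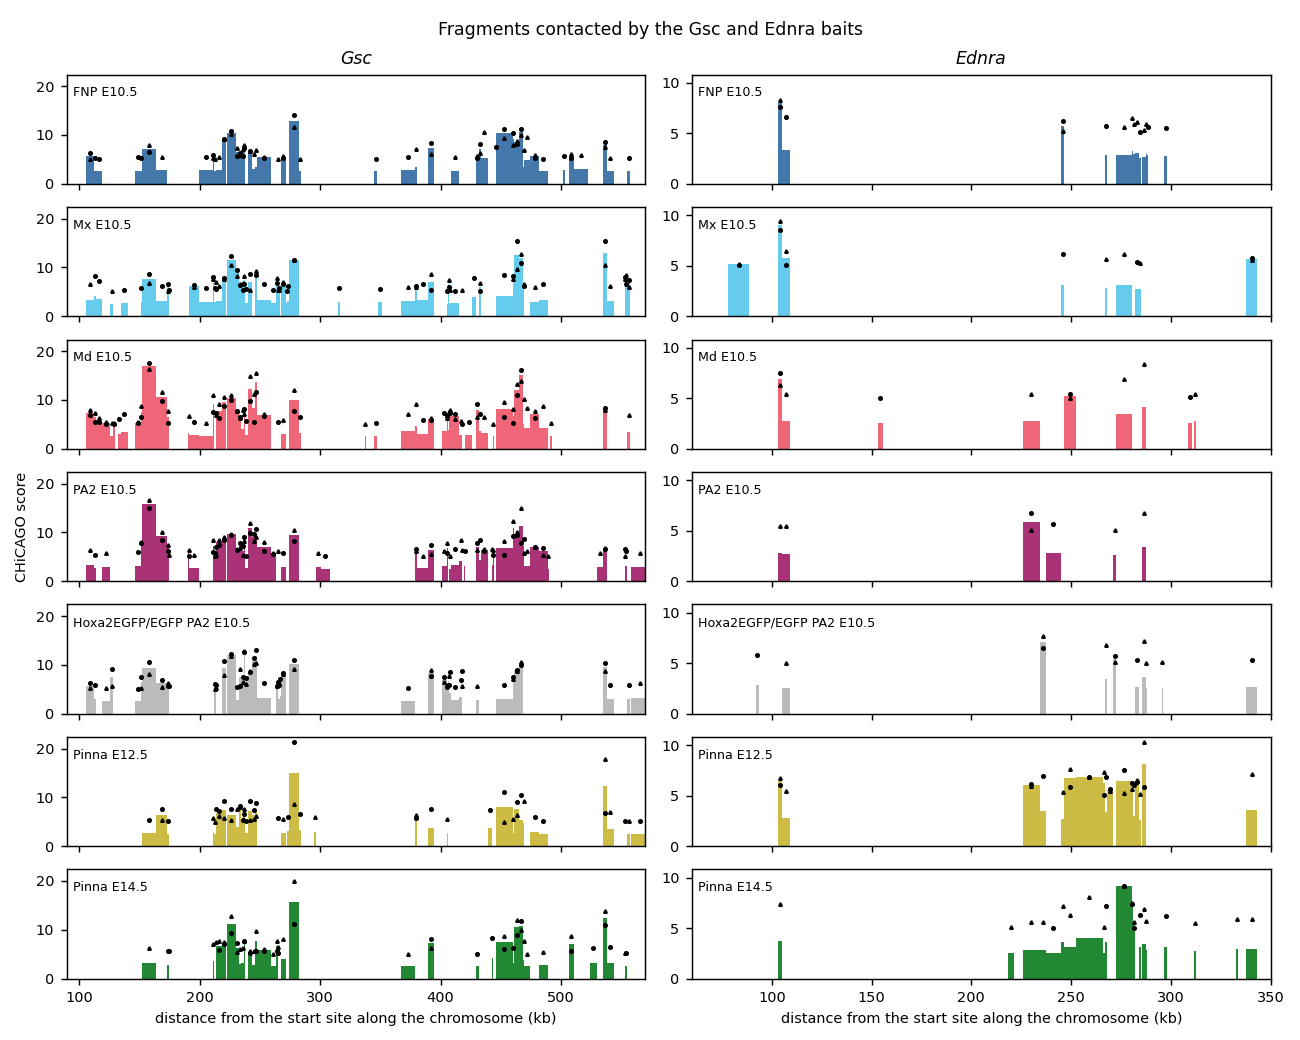
CHiCAGO scores (y axis) of fragments contacted by the *Gsc* bait (left) and the *Ednra* bait (right) against distance from the TSS in kb along the chromosome (x axis), 1 row of panels per condition. Bars are the mean of 2 replicates over the width of each fragment, and circles and triangles are replicates 1 and 2. The *Gsc* contact at 152 kb stood at 15.03 to 17.5 in Md and PA2, and the *Ednra* contacts between 226 and 338 kb were most frequent in pinna.

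The *Gsc* contacts listed in every library included promoter fragments of other genes on chromosome 12. The bait of *Dicer1*, which encodes the endonuclease of microRNA maturation, at 274 kb was listed in all 14 libraries (mean score 12.03 ± 4.03, SD, n = 14), as were a further fragment with a *Dicer1* start site at 222 kb (10.2 ± 1.99) and the bait of *Syne3*, a nuclear envelope protein gene, at 535 kb (10.0 ± 3.46). A pair of fragments without an annotated TSS, at 461 and 218 kb, had mean scores of 9.99 and 8.49 in all 14, and the bait of *Clmn* and *4930408O17Rik* at 390 kb was listed in 13. These contacts fell within 2 stretches upstream of *Gsc*, of 39 fragments between 106 and 282 kb and of 32 fragments between 345 and 558 kb.

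The *Gsc* fragment at 152 kb (chr12:104625486-104637569) separated Md and PA2 from the rest. It scored 17.5 and 16.4 in Md and 15.03 and 16.5 in PA2, against 6.41 and 7.85 in FNP, 8.63 and 6.77 in Mx, 10.51 and 8.17 in knockout PA2, 5.25 or unlisted at E12.5 and 6.30 or unlisted at E14.5. The lowest Md or PA2 score was above every other, and the difference to FNP and Mx was 0.79 (SE 0.16, limma adjusted p = 0.533). Against pinna it was -2.23 for pinna minus PA2 (SE 0.94, adjusted p = 0.534), and against the knockout -0.53 for knockout minus PA2 (SE 0.83, adjusted p = 0.817). This fragment, and the *Hand2* fragments at -686 and 30.1 kb, were named after their values were seen.

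In the pinna comparison, limma called 10 of 156 member pairs, 2 higher and 8 lower in pinna than in PA2, where it called 6.19% of all 179227 pairs, 2.01% as higher and 4.19% as lower. Both higher pairs were the *Ednra* contacts above. Of the lower pairs, 4 belonged to *Gsc*, at 151, 191, 433 and 443 kb, 3 to *Hand2*, at -736, -679 and -457 kb, and 1 to *Edn1*, at -595 kb. All 8 were unlisted in the 4 pinna libraries and scored between 5.19 and 9.63 in the PA2 libraries, with differences between -2.39 and -2.77. They could enter the test only because both PA2 libraries listed them, so that their calls had been selected for the difference and are given as a description. The *Hand2* fragment at -679 kb showed the longest run of values, with 11.8 and 17.0 in Md, 6.50 and 9.63 in PA2, 5.05 and 8.49 in knockout PA2, 8.31 and 8.83 in Mx and 5.26 or unlisted in FNP. With a score needed in at least 3 libraries, which removes pairs listed in both PA2 libraries alone, 0 member pairs and 5 of all pairs passed, and the *Ednra* pairs had adjusted p of 0.333 and 0.348. Without PA2 replicate 1 or replicate 2, 1 and 0 member pairs passed, where 1.58% and 1.82% of all pairs did, and the *Ednra* pairs had adjusted p between 0.0534 and 0.149.

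Between the pinna stages, among pairs listed in at least 4 of the 14 libraries, 3 of 158 member pairs were higher at E14.5 and 0 were lower, where 0.901% of all 161898 pairs were called, 0.481% higher and 0.42% lower. The *Gsc* fragment at 506 kb scored 5.59 and 8.76 at E14.5, the *Hand2* fragment at -627 kb scored 8.40 and 5.32, and the *Hand2* fragment at -595 kb scored 8.01 and 10.46, and all were unlisted at E12.5. The *Gsc* fragment at 506 kb and the *Hand2* fragment at -627 kb met the filter only with both E14.5 libraries. They thus entered the test through the stage in which they were high. The limma differences of the 3 pairs, in the order named, were 2.64 (SE 0.45, adjusted p = 0.0266), 2.60 (SE 0.46, adjusted p = 0.0297) and 2.91 (SE 0.55, adjusted p = 0.0417). When a library of either stage was left out, these pairs had adjusted p between 0.0724 and 0.205 or were no longer tested. The direction of the stage calls was not stable either, with 0 higher and 3 lower member pairs without E14.5 replicate 1, 0 and 1 without E14.5 replicate 2, 0 and 1 with equal list sizes and 2 and 1 among same-chromosome pairs. The fragment at -595 kb was also listed in each Md, PA2 and knockout library, with scores between 5.71 and 10.9, and in no FNP or Mx library. The fragment at -616 kb scored 6.43 and 10.7 at E14.5 and was unlisted at E12.5, with a difference of 2.81 (SE 0.97, limma adjusted p = 0.466).

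In the knockout, limma called 0 of 158 member pairs, with 2.16% of all pairs called, 1.8% lower and 0.362% higher than in wild-type PA2. At an unadjusted p below 0.05, 6 member pairs had higher and 17 lower scores in the knockout, where 4.82% of all pairs were higher and 11.9% lower. The largest same-chromosome difference was that of the *Edn1* fragment at -654 kb, with 7.25 and 9.25 in knockout PA2 and unlisted in wild-type PA2 (difference 2.80, SE 1.00, limma adjusted p = 0.211).

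The largest knockout difference of all member pairs joined the *Hand1* bait on chromosome 11 with the *Wnt1* bait on chromosome 15 (chr15:98784886-98791552). *Wnt1* encodes a secreted ligand, and its regulatory DNA drives the Cre transgene of the wild-type embryos. The pair scored 34.9 and 48.1 in wild-type PA2 and was unlisted in both knockout libraries (difference -4.41, SE 1.01, limma adjusted p = 0.0624). It scored 16.5 and 28.6 in FNP, 55.9 and 5.03 in Mx, 16.4 and 15.5 in Md and 16.9 in 1 of the 4 pinna libraries, and was unlisted in the other 3. The contact was not particular to *Hand1*. The *Wnt1* bait was listed with between 209 and 425 chromosome 11 fragments in each of the 12 wild-type libraries and with 0 in both knockout libraries, while its chromosome 15 contacts numbered between 9 and 20 throughout. The highest of these scores belonged to chr11:6468951-6471178 (mean 1125 over the 14 libraries), 51.4 Mb from the *Hand1* bait. Genotype and the presence of the transgene cannot be told apart in these libraries.

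**Figure D5:**
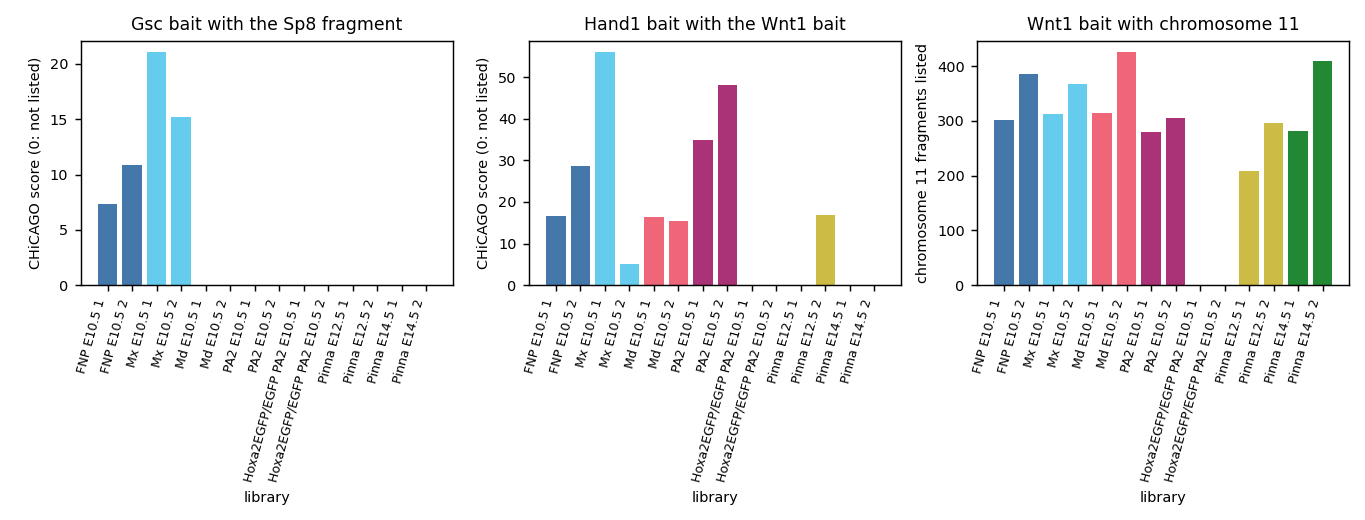
Scores of the *Gsc* bait with the *Sp8* fragment (left) and of the *Hand1* bait with the *Wnt1* bait (middle), and the number of chromosome 11 fragments listed with the *Wnt1* bait (right), as bars for each of the 14 libraries (x axis). *Gsc* with *Sp8* was listed in the 4 FNP and Mx libraries only, and the *Wnt1* bait had 0 chromosome 11 fragments in both knockout libraries.

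Beyond 2 Mb, *Gsc* was listed with 41 fragments, *Hand2* with 28, *Hand1* with 19, *Ednra* with 6 and *Edn1* with 2, of which 4, 2, 3, 1 and 0 recurred in 2 or more libraries. The most recurrent was the fragment with a start site of *Sp8*, which encodes a zinc finger factor of facial and limb outgrowth, 14.4 Mb from *Gsc* (chr12:118838811-118846354, promoter sequence above). It scored 7.35 and 10.9 in FNP and 21.0 and 15.2 in Mx, and was unlisted in the other 10 libraries. Its difference, Md and PA2 minus FNP and Mx, of -3.23 (SE 0.57) was the largest of the member pairs in that comparison, with an adjusted p of 0.533 in limma. In the fit of population means, chosen after the data were seen, the adjusted p was 0.0251, a value shared with other member pairs. Unlisted in Md and PA2, the pair entered the test through the group in which it was high. *Gsc* was also listed with the *Crip1* fragment, 8.68 Mb away, in 3 libraries (7.93 in FNP, 15.7 in Mx and 9.97 at E12.5), and *Hand2* with a fragment 21.1 Mb away in FNP replicate 2 and Mx replicate 2 (18.7 and 9.62).

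Of the contacts between chromosomes, 28 were listed for *Edn1*, 17 for *Hand2*, 14 for *Ednra*, 11 for *Hand1* and 5 for *Gsc*. The merged libraries of Md and E12.5 pinna alone accounted for 26, 13, 12, 8 and 4 of these. Only *Hand1* had any, 3 in all, that recurred in 2 or more libraries.

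The baits whose contact numbers, divided by the library's total of same-chromosome pairs, varied most like those of a member over the 14 libraries were found among 5255 baits with a mean of 10 or more contacts. They were *Shisal2a*, *Otp* and *Mnx1* for *Gsc* (Pearson r = 0.92, 0.90 and 0.89), *Spatc1* with *Mirt2*, *Slc38a2* and *Ccdc155* for *Hand2* (0.84, 0.82 and 0.79), *Igfbp6*, *Klhdc2* and *Ubxn6* for *Hand1* (0.83, 0.81 and 0.80), *Irs2*, *Zfp286* and *Kcnj2* for *Edn1* (0.78, 0.77 and 0.77) and *Mog*, *Zfhx3* and *Stra6l* for *Ednra* (0.85, 0.83 and 0.82). The points share libraries and their size, and the values are the highest of 5255.

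Of 25 other genes of the endothelin pathway and its arch targets, 23 had a bait. In the Md and PA2 comparison the contact numbers of 22 overlapped between the groups, and those of *Gata3*, a zinc finger gene of the ventral arch, were lower in Md and PA2 (38.25 against 65.5, summed over 3 baits), where 0.664% of all baits were lower without overlap. That share counts single baits, and none was taken for sums over several baits. *Bmp4*, which encodes a ventral arch ligand, gave 21.5 against 34.5 but overlapped. In pinna against PA2, *Gnaq*, which encodes a G protein subunit coupled to the receptor, was higher without overlap (5.00 against 0.50), and the distal-less genes *Dlx3* (23.75 against 32.0) and *Dlx4* and the homeobox gene *Msx2* (5.50 against 20.0) were lower. Over all baits 9.69% were higher and 5.39% lower without overlap in that comparison. Limma on pair scores called 0 of 737 pairs of these genes for Md and PA2, 22 of 546 for pinna (9 higher, 13 lower, 4.03% in all), 18 of 567 for the knockout (1 higher, 17 lower, 3.17%) and 7 of 567 between pinna stages (3 higher, 4 lower, 1.23%). The shares over all pairs were 6.19%, 2.16% and 0.901%.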

How the data were processed

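PCHi-C libraries of sorted mouse CNCCs were processed by the authors with HiCUP and CHiCAGO on mm10, and bcl2fastq 2.17 is named in the submitters' processing notes. The deposited files list bait and fragment pairs with a CHiCAGO score of 5 or more, without read counts, so that depth is unknown. The libraries of Md replicate 1 and E12.5 pinna replicate 2 are named as merged.

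Unlisted pairs were set to 0. Contact numbers were compared by exact permutation over libraries, two-sided, and with limma 3.58.1 (R 4.3.3) on log2(contacts + 1). Pair scores were tested on asinh with lmFit and eBayes (trend), over all pairs listed in at least 2 libraries compared, or 4 of 14 for the knockout and stage comparisons, which were fitted with 7 condition means. Limma p-values were Benjamini-Hochberg adjusted over all pairs or baits, with a threshold of 0.05. Exact permutation p-values were not adjusted and were set against the same threshold. The adjustment planned for them, over all member baits and both bait comparisons, was not made. Named pairs were the 5 listed in the most libraries for each bait, those past the threshold, and the 2 of largest difference per comparison, with exceptions stated. Members and lists were chosen with earlier results of these data known. Scripts were tested on simulated data. Alternatives were other score thresholds, filters and caps, summed scores, equal list sizes, a replicate block and leaving out each library. Fits of condition means for both group comparisons were added after seeing the data. The truncated supplementary element list was not used.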

Additional observations from a re-analysis of the deposited data

Results flagged for a closer look

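The pair of the *Hand1* bait and the *Wnt1* bait lies between chromosomes, outside the same-chromosome contact numbers compared above, and it was listed in 9 of the 12 wild-type libraries and in 0 of the 2 knockout libraries. Its highest score was 55.9, in Mx replicate 1. The wild-type embryos carried the *Wnt1::Cre* transgene, and the part of the transgene in this contact was not tested.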

How the results depend on the processing

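Of 116 differences in contact numbers under alternative settings, 103 kept their sign and side of the threshold. The Md and PA2 difference of *Hand1*, which was 0, took either sign and passed in 0 of 14 settings. Of 44 counts of called member pairs, 28 stayed within 1.5 times the count given, which says nothing of their direction. Of 177 values of single pairs, 152 kept their sign and side of the threshold, and 0 turned their sign. Contact numbers of *Edn1* had no stable sign. The Md and PA2 difference of -0.25 became 0.25 at a score threshold of 10, 3.26 for summed scores, 1.00 with equal list sizes and 1.5 with pairs between chromosomes, and ranged from -1.25 to 1.42 with each library left out. Its pinna difference of 1.25 became -0.25 with equal list sizes and ranged from -2.25 to 4.75, below 0 without PA2 replicate 1. That of *Hand1* ranged from -2.25 to 0.75, above 0 without E14.5 replicate 2 (0.167) or PA2 replicate 2 (0.75). The Md and PA2 difference ranged from -3.67 to -1.67 for *Ednra* (exact p = 0.0286 without Md replicate 2) and from 1.58 to 8.58 for *Gsc* (exact p = 0.0286 without Mx replicate 1).

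Member pairs called for Md and PA2 numbered 0, and 35 with condition means (0% and 6.49% of all pairs). For pinna they numbered 10, 0 with at least 3 libraries and 19 with condition means (11103, 5 and 23210 of all pairs), and from 0 to 17 with each library left out. Leaving out PA2 replicate 1 gave 1 call and leaving out PA2 replicate 2 gave 0, where 1.58% and 1.82% of all pairs were called. The count was 17 without E12.5 replicate 1 or 2 (11.8% and 11.7% of member pairs, 10.7% and 10.1% of all) and 16 without E14.5 replicate 1 (11.4% and 10.1%). For the knockout they numbered 0, 2 with at least 2 libraries and 1 with scores capped at 20 (3500, 12857 and 4018 of all pairs), and from 0 to 1 with a library left out, 1 without either knockout replicate. Between stages they numbered 3, all higher at E14.5, 7 with at least 2 libraries (5 higher, 2 lower) and 1 with equal list sizes (lower), with 1459, 6609 and 1049 of all pairs. They numbered from 1 to 3 with a library left out, and turned direction without E14.5 replicate 1 (3 lower) and replicate 2 (1 lower). The cause was not tested, except that the stricter filter removes pairs listed in both PA2 libraries alone.

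Deviations of same-numbered replicates had correlations between 0.0009 and 0.059 over 21 pairs of groups. Replicate 2 listed more same-chromosome pairs than replicate 1 in each condition, and whether the numbers pair the samples cannot be told. With the replicate number as a block, the *Hand2* difference of 28.75 had an exact p of 0.0556, the smallest that 36 groupings allow, so that no difference in that comparison could pass, and 0 member pairs passed between stages (770 of all pairs). For pinna the 9 blocked groupings allow no p below 0.111. Counts of member pairs in the other 3 comparisons were the same with the block.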
